A study of Mus musculus with 6 samples.

Results

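The 7 genes described here are Alb, Afp, Afm and Gc, which make up the albumin family, Gpc3, and the genes of the repressors Zhx2 and Zbtb20. They were taken by gene name from a deposited table of 34745 mouse genes. Each of the 7 was among the 11435 genes that passed the filter on low values, which asked that 2 or more libraries reach an FPKM of 1 (fragments relative to gene length and sequencing depth). Alb, Afm, Gc and Zhx2 passed it in all 6 libraries, Afp and Gpc3 in the 4 transgenic libraries, and Zbtb20 in the 4 libraries that are not tumor, so Afp, Gpc3 and Zbtb20 entered the test through the tissues in which they were high.

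Liver RNA of C57BL/6 mice was sequenced in 6 libraries, 1 for each of 3 tissues in each of 2 sexes, to follow how Hras12V-driven liver cancer develops in males and in females. Normal liver came from wild-type mice, and precancerous tissue adjacent to tumor and the hepatocellular carcinoma itself came from mice that carry the Hras12V transgene; no group was treated. In every tissue the males were aged 9 months and the females 15 months, so the effects of sex and of age cannot be told apart. No group has a replicate, and the labels give neither the promoter that drives the transgene nor whether a library holds 1 mouse or several, nor whether a tumor and a precancerous library share a mouse.

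Alpha-fetoprotein, the product of Afp, is the chief plasma protein of the fetal liver, and after birth its gene is switched off while its neighbour Alb goes on to make albumin, the chief plasma protein of the adult. Zhx2, a protein of zinc fingers and homeodomains, and Zbtb20, a zinc finger protein, take part in this postnatal silencing; Zhx2 also lowers Gpc3 and the imprinted RNA H19 in adult liver. Gpc3 encodes glypican-3, a heparan sulphate proteoglycan anchored to the cell surface, and both alpha-fetoprotein and glypican-3 serve as markers of hepatocellular carcinoma in the clinic.

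In the GRCm38 build, Alb (chr5:90460897-90476602), Afp (chr5:90490737-90508907) and Afm (chr5:90518932-90553543) stand in a row on the plus strand of chromosome 5. The gap from Alb to Afp is 14134 bases and that from Afp to Afm is 10024 bases. Gc (chr5:89417522-89457898) lies on the minus strand 1002998 bases before Alb. The longest coding transcripts of Alb, Afp and Afm have 15 exons each and that of Gc has 13. Gpc3 (chrX:52272426-52613950) lies on the minus strand of the X chromosome, Zhx2 (chr15:57694665-57839832) on the plus strand of chromosome 15 and Zbtb20 (chr16:42875881-43642602) on the plus strand of chromosome 16.

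The promoters of the albumin family and of Gpc3 are shown because they hold CCAAT, the box bound by NF-Y, a factor with which ZHX proteins are known to interact. Each is the 250 bases before the RefSeq start of the gene in GRCm38.p6, on the gene's own strand, and the capitals mark CCAAT or, where the box lies on the other strand, its complement ATTGG.
Gc, minus strand, chr5:89457899-89458148: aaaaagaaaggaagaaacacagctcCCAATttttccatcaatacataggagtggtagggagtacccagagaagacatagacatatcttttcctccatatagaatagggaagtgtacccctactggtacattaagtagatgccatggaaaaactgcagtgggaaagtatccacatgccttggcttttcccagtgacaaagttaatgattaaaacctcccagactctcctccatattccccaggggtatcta
Alb, plus strand, chr5:90460620-90460869: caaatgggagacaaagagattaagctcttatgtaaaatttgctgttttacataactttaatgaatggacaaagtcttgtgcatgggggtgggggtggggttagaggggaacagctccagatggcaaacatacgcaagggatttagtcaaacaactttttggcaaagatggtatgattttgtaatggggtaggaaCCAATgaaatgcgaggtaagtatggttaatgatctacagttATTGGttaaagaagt
Afp, plus strand, chr5:90490464-90490713: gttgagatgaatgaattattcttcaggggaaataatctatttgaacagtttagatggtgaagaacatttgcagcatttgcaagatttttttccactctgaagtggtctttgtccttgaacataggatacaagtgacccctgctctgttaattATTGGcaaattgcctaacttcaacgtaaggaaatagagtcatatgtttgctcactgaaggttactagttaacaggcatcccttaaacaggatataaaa
Afm, plus strand, chr5:90518699-90518948: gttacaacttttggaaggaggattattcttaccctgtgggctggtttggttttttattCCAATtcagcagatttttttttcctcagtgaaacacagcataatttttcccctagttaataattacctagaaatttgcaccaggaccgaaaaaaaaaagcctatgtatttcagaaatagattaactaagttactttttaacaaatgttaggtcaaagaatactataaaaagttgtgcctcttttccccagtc
Gpc3, minus strand, chrX:52613975-52614224: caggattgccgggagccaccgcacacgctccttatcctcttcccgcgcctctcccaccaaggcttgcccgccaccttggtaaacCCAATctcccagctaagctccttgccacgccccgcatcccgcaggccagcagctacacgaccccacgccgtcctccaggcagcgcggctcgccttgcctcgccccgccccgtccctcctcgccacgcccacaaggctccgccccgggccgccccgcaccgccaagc

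RefSeq promoters were found for 6 of the 7 genes, Zhx2 being the other one. That of Zbtb20, chr16:43247034-43247283, lies inside the gene body (chr16:42875881-43642602) and so precedes an internal start. With 21 annotated transcripts the gene can have other starts, which were not searched. CCAAT, searched on both strands, was in 5 of these 6 promoters, all but that of Zbtb20, and in 33.8% of 32851 RefSeq promoters of the same length. It began 225 bases before the start in Gc, 192 in Afm, 166 in Gpc3 and 56 in Alb, and Alb held another on the opposite strand, 15 to 11 bases before the start. Neither TGTTTAC, a FOXA motif (3.17% of all), nor AAGGTCA, a motif of NR5A2 (4.08% of all), was in any of the 6. Sites of HNF1 are not reported here, so this absence does not extend to other liver factors. In Afp the box lay on the opposite strand alone, from 98 to 94 bases before the start, so that 4 of the 6 held it on the given strand against 19.1% of all. TATAAA was found in Afp and Afm and in 12.4% of all promoters. Guanine and cytosine made up 71.6% of the Gpc3 promoter, between 33.2% and 42.0% of those of the albumin family and 44.8% of that of Zbtb20, against a median of 52.4%. These matches describe letters in a window and were not tested for binding.

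The libraries held 5996585, 6891837 and 7347064 counts in male normal, precancerous and tumor tissue and between 15047022 and 18434508 in the female ones. A count of 3 was worth up to 0.161 FPKM of Gpc3, in male normal liver. Ratios between single libraries are given with their 95% counting interval, which is exact and covers counting error alone. Fold changes over both sexes are log2 values of edgeR's quasi-likelihood test with their standard error (SE) and an adjusted p after Benjamini and Hochberg over the 11435 genes, called under 0.05. A tissue effect that differs between males and females goes into the residual of that model, and therefore has no test of its own.

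The libraries are those of liver by the hepatocyte markers: the summed level of the 9 markers was between 35784 and 65044 FPKM, with Alb the most abundant gene of all in each library. Alb, itself 1 of the 7 genes, made up 22399 FPKM of the lowest sum, in male normal liver. It made up 53377 FPKM of the highest, in the male tumor, so these sums largely follow Alb. Between tumor and precancerous tissue 5 of these 9 genes fell and none rose. Over all tested genes edgeR called 13.8% higher and 12.1% lower in that comparison, to be set beside each count of markers below. Of the markers of cholangiocytes and progenitors 4 of 10 were tested and 3 rose, and their sum went from between 9.42 and 16.2 FPKM in the 4 other libraries to 126 in the male and 144 in the female tumor. Spp1 (osteopontin) alone made up 115 and 129 FPKM of the tumor sums, and was at between 6.67 and 11.8 FPKM elsewhere. Prom1 and Epcam reached 1 FPKM in the tumors only and entered the test through them, so the count of 3 is a description. Of 10 macrophage markers 9 were tested, 7 fell and none rose, with a sum of 324 and 424 FPKM in precancerous tissue and 138 and 197 in tumor. Endothelial markers (9 of 10 tested) gave 1 higher and 4 lower, with sums of 71.5 and 83.7 FPKM in precancerous tissue and 49.0 and 52.7 in tumor. The 10 stellate markers gave 5 higher and 2 lower, with sums of 86.4 and 162 against 83.0 and 128 FPKM. Dcn, 1 of the 2 lower, alone made up 74.4 and 141 FPKM of the precancerous sums and 43.4 and 71.1 of the tumor sums. The 5 higher were Col1a1, Col1a2, Col3a1, Acta2 and Pdgfrb. The erythroid markers (5 of 6 tested) gave 1 lower. Of 9 lymphocyte markers 3 were tested and edgeR called 2 higher, where DESeq2 and limma-trend each called 1; Nkg7, one of the 2, reached 1 FPKM in the tumors only. The lymphocyte sums of males and females were 4.39 and 16.7 FPKM in normal liver, 2.33 and 3.75 in precancerous tissue, with Cd3d at 0 in the male one, and 8.16 and 6.90 in tumor, and none of the 3 was called between tumor and normal liver. The part of these cell types in the levels of the 7 genes was not tested. In bulk tissue, fewer cells of a type and less RNA per cell cannot be told apart.

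Afp was near its floor in normal liver and became one of the more abundant genes in tumor. Its level along normal, precancerous and tumor tissue was 0.547, 1.16 and 93.1 FPKM for males (14, 34 and 2922 counts) and 0.0663, 7.19 and 125 FPKM for females (5, 462 and 9855 counts). Both tumors were above the 4 other libraries, and within each sex the order was normal, precancerous, tumor. By level Afp was number 11855 among all genes of the table in male normal liver and 15532 in female normal liver, and number 352 and 241 in the male and female tumor.

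The steps of Afp fell at different places in the sexes. Male tumor was 80.6-fold (57.6 to 117) above male precancerous tissue, which was 2.11-fold (1.105 to 4.26) above male normal liver. In females the tumor was 17.4-fold (15.9 to 19.2) above precancerous tissue, and that in turn 108-fold (46.1 to 335) above normal liver, where the gene had 5 counts. The female precancerous library therefore stood 6.22-fold (4.39 to 9.10) above the male one, while the tumors were 1.34-fold apart (1.29 to 1.40). In normal liver the order of the sexes was the opposite, with males 8.24-fold (2.81 to 29.2) above females on 14 and 5 counts.

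Over both sexes Afp rose between precancerous and tumor tissue, by 4.85 on the log2 scale (SE 1.002, adjusted p = 0.0253), the 28th highest of all tested genes. Against normal liver the tumor value was 8.90 (SE 1.29, adjusted p = 0.00740), the 21st highest. The value between precancerous and normal tissue, 4.05 (SE 1.24, adjusted p = 0.236), was not called. The call between tumor and precancerous tissue was lost without the male precancerous library (3.66, adjusted p = 0.129), without the female precancerous library (6.82, adjusted p = 0.0682) and without sex in the model (4.66, adjusted p = 0.137).

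**Figure D1:**
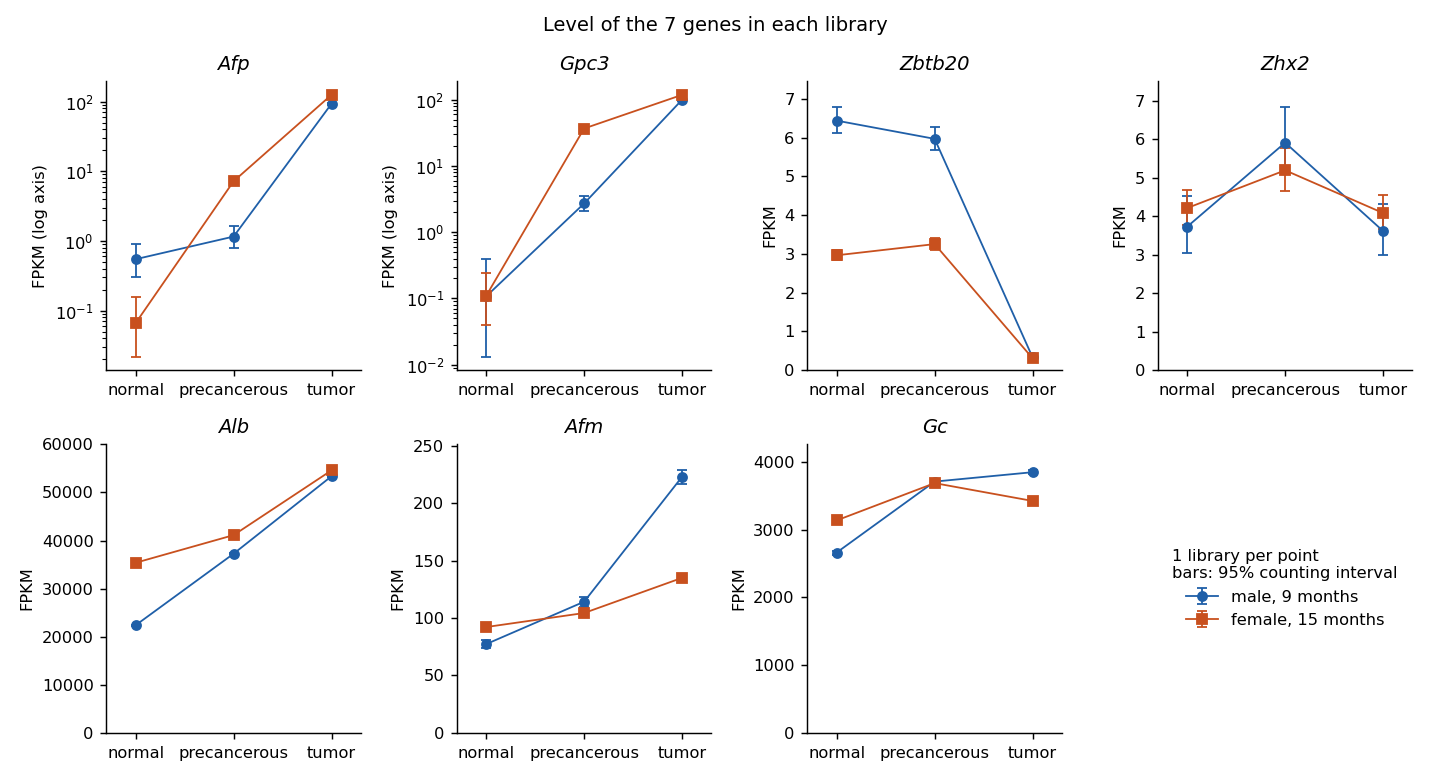
Level of each of the 7 genes in FPKM (vertical axis, logarithmic for Afp and Gpc3) in normal, precancerous and tumor tissue (horizontal axis) of males at 9 months (circles) and females at 15 months (squares). Each point is 1 library and the bars are 95% counting intervals; Afp and Gpc3 climb to between 93.1 and 125 FPKM in the tumors while Zbtb20 drops to 0.333 and 0.308 FPKM.

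Gpc3 followed the same order within each sex and reached nearly the same level as Afp in tumor, but more of its climb came before tumor. Along normal, precancerous and tumor tissue it was at 0.107, 2.71 and 99.5 FPKM for males (2, 58 and 2270 counts) and at 0.109, 36.7 and 118 FPKM for females (6, 1714 and 6760 counts). The 2 normal livers, with 2 and 6 counts, could not be told apart at this depth, and the 2 tumors were 1.19-fold apart (1.13 to 1.25). The precancerous libraries lay between them and far apart, the female one 13.5-fold (10.4 to 17.9) above the male one.

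In males Gpc3 was 25.2-fold higher in precancerous than in normal tissue, with an interval of 6.68 to 213 on 58 and 2 counts, and 36.7-fold (28.3 to 48.5) higher again in tumor. In females the first step was 335-fold (154 to 915) and the second 3.22-fold (3.05 to 3.40). The female precancerous liver thus held Gpc3 at a level that made it number 877 of all genes, against 6955 in the male one.

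Over both sexes Gpc3 rose between normal liver and tumor, by 10.59 on the log2 scale (SE 1.32, adjusted p = 0.00493), the 8th highest of all tested genes. Its value between precancerous and normal tissue was 7.36 (SE 1.29, adjusted p = 0.118), the 7th highest, and that between tumor and precancerous tissue was 3.23 (SE 0.88, adjusted p = 0.0524); neither was called. Both depended on the library left out. Tumor against precancerous tissue was called without the male tumor (1.73, adjusted p = 0.0409), without the female precancerous library (5.15, adjusted p = 0.0262) and without the female tumor (5.05, adjusted p = 0.00181), and precancerous against normal tissue was called without the male precancerous library (8.31, adjusted p = 0.0372), without the male tumor (7.86, adjusted p = 0.0239), without the female tumor (7.84, adjusted p = 0.00303) and by DESeq2 (7.02, adjusted p = 3.86e-05).

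The ratio of the FPKM of Gpc3 to that of Afp shows how the 2 genes parted in precancerous tissue. It was 1.07 in the male and 0.943 in the female tumor, and 2.35 in male and 5.10 in female precancerous tissue. In normal liver it was 0.196 in males and 1.65 in females, on at most 14 counts of either gene.

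Zbtb20 was low in the tumors of both sexes. Along normal, precancerous and tumor tissue it was at 6.44, 5.97 and 0.333 FPKM for males (1422, 1515 and 90 counts) and at 2.97, 3.25 and 0.308 FPKM for females (1928, 1803 and 209 counts). Both tumors were below the 4 other libraries, which ran from 2.97 to 6.44 FPKM. Male precancerous tissue was at 0.927 (0.862 to 0.997) of male normal liver, and female normal liver at 0.911 (0.854 to 0.972) of female precancerous tissue.

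The male tumor was 17.9-fold (14.5 to 22.5) below male precancerous tissue, and the female tumor 10.6-fold (9.15 to 12.3) below female precancerous tissue. Over both sexes Zbtb20 fell by 3.77 on the log2 scale between precancerous and tumor tissue (SE 0.29, adjusted p = 0.00314), which placed it 70th from the lowest of all tested genes. Against normal liver it also fell, with a log2 fold change of -3.77 (SE 0.29, adjusted p = 0.00171), 88th from the lowest. Between precancerous and normal tissue the value was 0.00298 (SE 0.25, adjusted p = 0.997). Both calls held in each alternative that tested the gene and without each library in turn, with tumor against precancerous values between -4.26 and -3.36 when a library was left out and -2.04 on log2(FPKM + 1).

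In normal and precancerous tissue, Zbtb20 was higher in the males at 9 months than in the females at 15 months, by 2.17-fold (2.03 to 2.33) and 1.83-fold (1.71 to 1.97). In tumor the sexes did not differ beyond counting error, at 1.08-fold (0.834 to 1.39). The value of males against females over the 3 tissues was 0.65 on the log2 scale (SE 0.22, adjusted p = 0.0680), which was not called; it was called by DESeq2 (adjusted p = 0.0340), without the male tumor (0.89, adjusted p = 0.0147) and without the female tumor (0.91, adjusted p = 0.00722).

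Zhx2 kept within a narrow range. Along normal, precancerous and tumor tissue it was at 3.73, 5.92 and 3.62 FPKM for males (101, 184 and 120 counts) and at 4.22, 5.20 and 4.09 FPKM for females (336, 353 and 340 counts). The precancerous library was the highest of its sex in both sexes, and normal liver and tumor did not differ beyond counting error, with tumor at 0.970 (0.738 to 1.28) of normal in males and 0.969 (0.831 to 1.13) in females. Precancerous tissue was 1.59-fold (1.24 to 2.04) above normal liver in males and 1.23-fold (1.06 to 1.44) in females.

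No comparison of tissues called Zhx2. Tumor against precancerous tissue gave -0.55 on the log2 scale (SE 0.16, adjusted p = 0.0586), precancerous against normal tissue 0.47 (SE 0.16, adjusted p = 0.264) and tumor against normal liver -0.08 (SE 0.16, adjusted p = 0.747). The first value crossed the threshold when no filter was set on low genes (-0.59, adjusted p = 0.0466) and when the filter was stricter (-0.51, adjusted p = 0.0466).

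The FPKM of Zhx2 divided by that of Zbtb20 was 0.579 and 0.991 in male normal and precancerous tissue and 1.42 and 1.60 in the female ones, against 10.9 in the male and 13.3 in the female tumor. The length behind the FPKM bears on such a ratio. It was 36821 bases for Zbtb20, which has 21 annotated transcripts, and 4513 bases for Zhx2, which has 2. A gene-level count does not tell the transcripts apart.

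Alb was the most abundant gene of every library and was highest in the tumors. Along normal, precancerous and tumor tissue it was at 22399, 37266 and 53377 FPKM for males (344255, 658253 and 1005109 counts) and at 35383, 41131 and 54600 FPKM for females (1601171, 1586228 and 2579704 counts). Within each sex the order was normal, precancerous, tumor, and the tumors of the sexes were 1.02-fold apart. Tumor was 2.38-fold above normal liver in males and 1.54-fold in females. The values over both sexes, 0.43 between tumor and precancerous tissue (SE 0.29, adjusted p = 0.325), 0.46 between precancerous and normal tissue (SE 0.29, adjusted p = 0.510) and 0.90 between tumor and normal liver (SE 0.29, adjusted p = 0.0705), were not called. The last of them was called by DESeq2 (0.89, adjusted p = 0.000645).

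The relation of the fetal to the adult member of the family changed by orders of magnitude, since Afp moved far more than Alb. The FPKM of Alb was 40967 times that of Afp in male normal liver, 32254 times in male precancerous tissue and 573 times in the male tumor. In females it was 533512, 5720 and 436 times that of Afp in the same order. In every library, the tumors included, Alb was thus far above Afp per length.

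Afm encodes afamin, a vitamin E-binding plasma protein, and is the gene next to Afp. From normal over precancerous to tumor tissue it was at 77.3, 114 and 223 FPKM for males (1576, 2676 and 5568 counts) and at 92.2, 104 and 135 FPKM for females (5532, 5339 and 8459 counts). Both tumors were above the 4 other libraries, the male tumor 1.65-fold above the female one. Afm rose between normal liver and tumor, by 1.01 on the log2 scale (SE 0.26, adjusted p = 0.0379), and its values between tumor and precancerous tissue (0.66, SE 0.26, adjusted p = 0.124) and between precancerous and normal tissue (0.35, SE 0.26, adjusted p = 0.569) were not called. The call was lost without the male normal (0.66, adjusted p = 0.166), male precancerous (1.01, adjusted p = 0.0966), male tumor (0.63, adjusted p = 0.112) or female precancerous library (1.01, adjusted p = 0.0918), and without sex in the model (1.03, adjusted p = 0.120). In the annotation 3.6% of its exonic bases lie under an exon of a gene on the opposite strand, which the table lists as Gm43448 with 28, 33 and 53 counts in the male libraries and 0 in each female one.

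Gc encodes the vitamin D-binding protein and had the narrowest range of levels in the family. From normal over precancerous to tumor tissue it was at 2661, 3707 and 3846 FPKM for males (31197, 49953 and 55240 counts) and at 3135, 3685 and 3422 FPKM for females (108218, 108394 and 123327 counts). Normal liver was the lowest library of its sex in both sexes. The tumor was 1.04-fold (1.02 to 1.05) above precancerous tissue in males and at 0.929 (0.921 to 0.936) of it in females. On FPKM scaled by TMM factors the male direction turned, with 3637 in tumor and 3668 in precancerous tissue. No comparison called Gc: tumor against precancerous tissue gave -0.06 (SE 0.21, adjusted p = 0.871), precancerous against normal tissue 0.35 (SE 0.21, adjusted p = 0.480) and tumor against normal liver 0.30 (SE 0.21, adjusted p = 0.323).

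By FPKM the order within the family was Alb, Gc, Afm, Afp in each of the 6 libraries. Afm and Afp came closest in the female tumor, at 135 and 125 FPKM, where their counting intervals did not overlap. Afp had more counts there, 9855 against 8459 for Afm. The length behind the FPKM was 4270 bases for Afp and 3400 for Afm, against 3368 and 3038 annotated exonic bases. The order of Afm and Afp in that library thus depends on the length used. The Alb level divided by that of Gc went from 8.42 and 11.3 in male and female normal liver to 13.9 and 16.0 in tumor. Divided by that of Afm it was 290, 326 and 239 in males and 384, 394 and 405 in females, so that Afm gained on Alb in the male tumor and not in the female one.

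**Figure D2:**
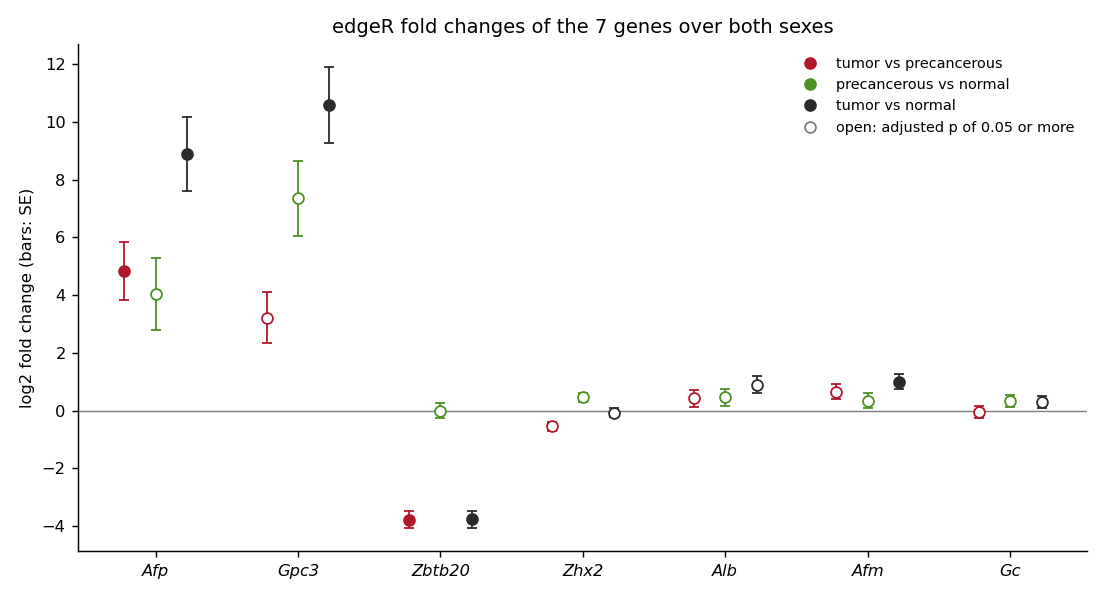
Log2 fold changes of the 7 genes over both sexes from the edgeR test (vertical axis, bars are standard errors) for tumor against precancerous, precancerous against normal and tumor against normal tissue; filled points passed an adjusted p of 0.05 and open points did not. The 3 comparisons share libraries, and Afp and Gpc3 stand far above 0 in each of them while Zbtb20 is below 0 at -3.77 in both comparisons with tumor.

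Counted over the 7 genes, tumor against precancerous tissue called 1 higher (Afp) and 1 lower (Zbtb20), where 13.8% of all tested genes were called higher, 12.1% lower and 25.9% in either direction. The median over the 7 was 0.43 on the log2 scale and that of all tested genes 0.0257. Tumor against normal liver called 3 higher (Afp, Gpc3, Afm) and 1 lower (Zbtb20), against a background of 17.3% higher, 16.1% lower and 33.4% in either direction, with a median of 0.90 over the 7 and 0.000537 over all genes. Precancerous against normal tissue called none of the 7, where edgeR called 0.105% of all genes higher, 0.149% lower and 0.254% in either direction. There 3 of the 7 had an unadjusted p under 0.05, each with a higher value, as had 1807 of the 11435 tested genes in either direction. DESeq2 called 1 of the 7 (Gpc3) and limma-trend none. The median over the 7 was 0.46 and that of all genes -0.0135.

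Males against females called none of the 7 either, although edgeR called 19.1% of all tested genes higher, 18.2% lower and 37.3% in either direction. Zbtb20 had an unadjusted p under 0.05, as had 5685 of the 11435 tested genes in either direction. It was the gene that DESeq2 called, and limma-trend called none. The values were -1.85 for Gpc3 (SE 0.85, adjusted p = 0.142), -0.80 for Afp (adjusted p = 0.485), -0.37 for Alb (adjusted p = 0.269), -0.14 for Zhx2 (adjusted p = 0.423), -0.11 for Gc (adjusted p = 0.628) and 0.11 for Afm (adjusted p = 0.703). The Gpc3 value was called without the male tumor (-3.70, adjusted p = 0.00911) and without the female tumor (-3.67, adjusted p = 0.00190), and that of Afp turned positive without either precancerous library (0.48 and 0.41). The counting differed between the sexes as well: mt-Co1 had 0 counts in each male library and between 266126 and 586467 in the female ones, while mt-Nd6 had between 5627 and 11819 counts in males and at most 44 in females. The effect of this on the 7 genes was not tested.

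**Figure D3:**
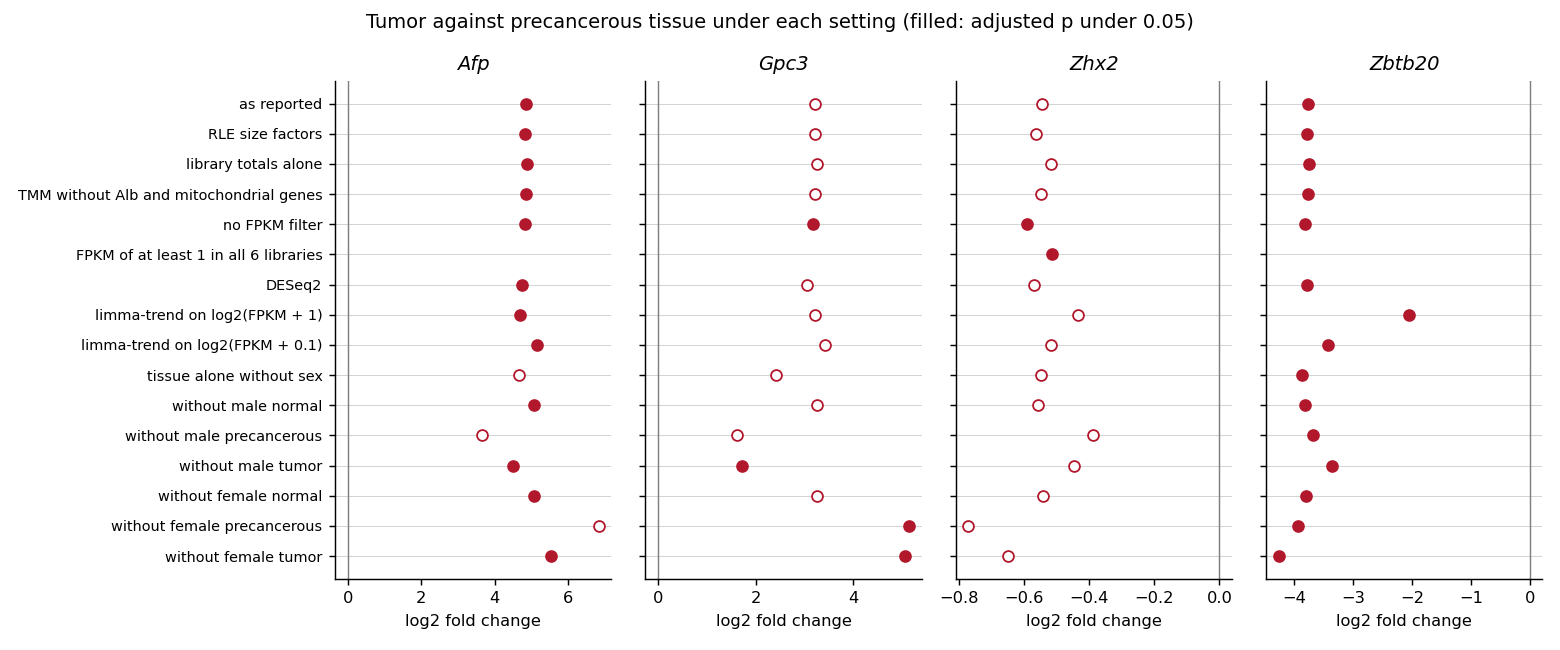
Log2 fold change of Afp, Gpc3, Zhx2 and Zbtb20 between tumor and precancerous tissue (horizontal axis) as reported and under each other normalization, filter, test and left-out library (vertical axis). Filled points passed an adjusted p of 0.05: Zbtb20 is filled in every setting that tested it and Gpc3 moves between 1.62 and 5.15.

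None of the paralogs and partners of Zhx2 was called between tissues. The list holds Zhx1, Zhx2 and Zhx3, and the NF-Y subunits Nfya, Nfyb and Nfyc, which bind CCAAT and with which ZHX proteins are known to interact. Between tumor and precancerous tissue none of these 6 was called by edgeR, DESeq2 or limma-trend, and 2 had an unadjusted p under 0.05, both with lower values. Among all 11435 tested genes edgeR called 25.9% in that comparison, and 4615 had an unadjusted p under 0.05. After Zhx2 the values farthest from 0 were 0.35 for Nfya (adjusted p = 0.145), -0.29 for Zhx1 (adjusted p = 0.0905) and -0.18 for Nfyc (adjusted p = 0.515). Between the sexes Zhx1 (0.34, adjusted p = 0.0300), Zhx3 (0.55, adjusted p = 0.0127) and Nfyb (0.48, adjusted p = 0.0137) were higher in males and Nfyc lower (-0.56, adjusted p = 0.0414). There 19.1% of all tested genes were called higher and 18.2% lower.

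Among 6 genes reported elsewhere to respond to Zhx2, 2 rose and 1 fell between precancerous and tumor tissue. The values ran from -5.14 to 6.53, so their median of 2.01 does not stand for a common direction. The shares over all tested genes were 13.8% higher and 12.1% lower. H19, a fetal imprinted RNA, was at 0, 0.255 and 15.1 FPKM along the male normal, precancerous and tumor libraries and at 0.0996, 2.02 and 244 FPKM along the female ones. It rose by 6.53 on the log2 scale (SE 0.36, adjusted p = 0.00261), and both tumors were above the 4 other libraries, as for Afp and Gpc3. Lpl, the lipoprotein lipase, rose by 2.16 (adjusted p = 0.00811), from 4.30 (male) and 7.32 (female) in precancerous tissue to 21.6 and 31.1 FPKM in tumor.

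The other genes of that list are known for sex-biased expression in liver. Elovl3, a fatty acid elongase, fell by 5.14 (adjusted p = 0.00955) and was at 357 FPKM in male normal liver, 6.02 in male precancerous tissue and at most 2.39 in the other libraries. The fold rests on few reads, 62 and 2 counts in male precancerous tissue and tumor and 4 and 0 in the female ones. Elovl3 was also called lower between precancerous and normal tissue (-5.55, adjusted p = 0.0311) and higher in males than in females (6.79, adjusted p = 0.00130). In these comparisons of tissues limma-trend called no gene of the list lower. Between the sexes it called 2 genes of the list higher in males. Cyp2a4 had 0.960, 144 and 4678 FPKM in males and 434, 1564 and 4556 in females, with a value of 4.15 (adjusted p = 0.186). Mup20 (1.86, adjusted p = 0.241) and Cyp4a12a (-0.01, adjusted p = 0.997) were not called between tumor and precancerous tissue and were higher in males, by 5.83 (adjusted p = 0.0130) and 8.23 (adjusted p = 0.00312). Cyp2a4, Mup20 and Cyp4a12a share reads with near-identical genes and are uncertain.

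Of 18 transcription factors known from the control regions of Afp and Alb, all 18 were tested, 3 rose and 7 fell between precancerous and tumor tissue, with a median of -0.46. Of all tested genes 13.8% were called higher and 12.1% lower there. Onecut1, which encodes hepatocyte nuclear factor 6, fell by 1.84 (SE 0.16, adjusted p = 0.00355), from 15.8 (male) and 13.7 (female) in precancerous tissue to 5.61 and 3.18 FPKM in tumor. Nfix, a nuclear factor I gene, fell by 1.21 (adjusted p = 0.0437), and Nfic, Nfib and Nfia fell with it by 0.72, 0.58 and 0.55. Gata4 and Prox1 fell by 0.90 and 0.49. Gata6 rose by 1.15 (adjusted p = 0.00857), Foxa3 by 0.93 (adjusted p = 0.00657) and Trp53 by 0.72 (adjusted p = 0.0205).

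None of the 18 was called by edgeR between precancerous and normal tissue, where it called 0.254% of all tested genes in either direction. There 4 of the 18 had an unadjusted p under 0.05, as had 1807 of the 11435 tested genes. DESeq2 called 1 of the 18 higher and 1 lower, and limma-trend none. Males against females called 1 higher, Nfia, and 8 lower, among them Foxa2, Cebpb, Nfic, Nfix, Gata4 and Trp53. The shares over all tested genes in that comparison were 19.1% higher and 18.2% lower.

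**Figure D4:**
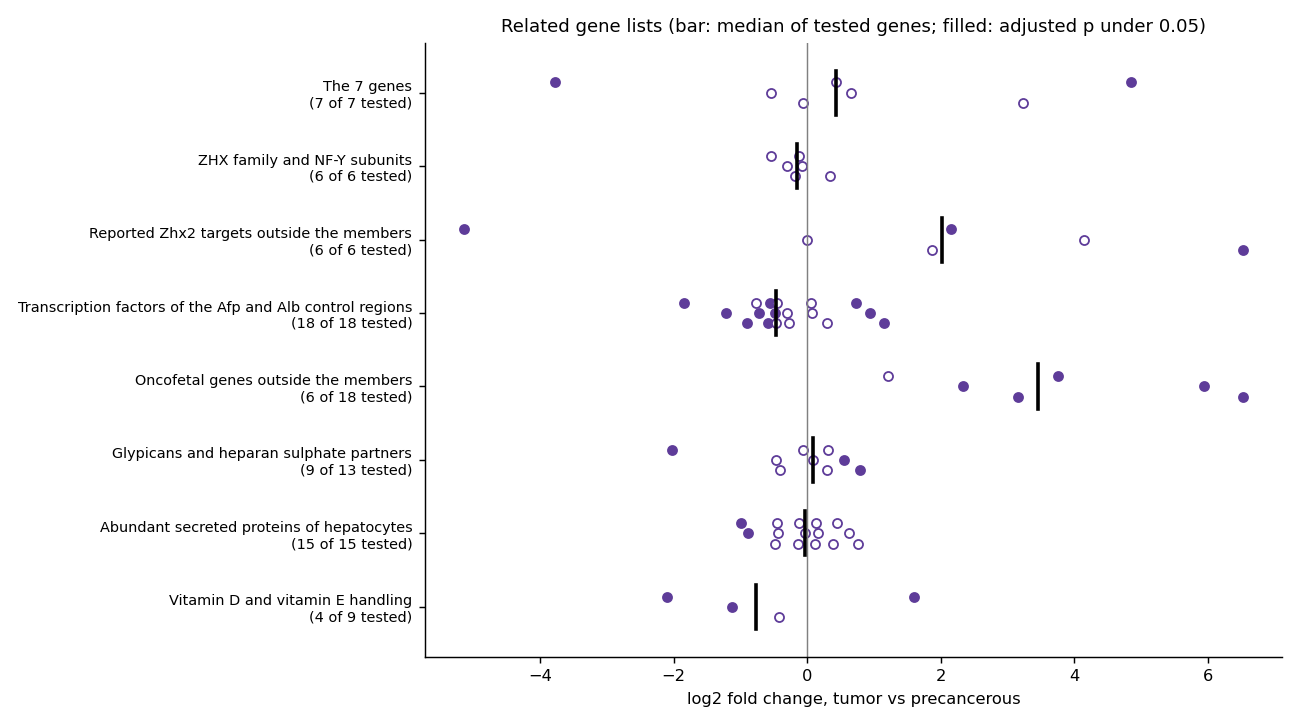
Log2 fold change between tumor and precancerous tissue (horizontal axis) of each tested gene of the 7 genes and of 7 related lists (vertical axis); filled points passed an adjusted p of 0.05 and the black bar is the median of the tested genes. The 6 tested oncofetal genes all have positive values, with a median of 3.46, while the secreted proteins of hepatocytes have a median of -0.03.

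Other oncofetal genes mostly failed the filter on low values. Of 18 listed, 12 did not pass the filter, among them Lin28b, listed at 0 in each library. Those that passed had to be high in some libraries, so their share is a description. Between tumor and precancerous tissue 5 of the 6 rose and none fell: H19, which stands in the Zhx2 list as well, Spink1, Sox4, Golm1 and, named after its value was seen, Cd24a. The share called higher over all tested genes was 13.8% and that called lower 12.1%. Spink1, a secreted trypsin inhibitor, rose by 5.94 (adjusted p = 0.0165), with 138 FPKM in the male and 8.61 in the female tumor. It was at most at 0.787 FPKM in precancerous tissue and listed at 0 in both normal livers. The fold rests on few reads, 1 and 5 counts in male and female precancerous tissue and 429 and 67 in the tumors. Sox4, a transcription factor gene, rose by 3.76 (adjusted p = 0.00253) and Golm1, which encodes a Golgi membrane protein used as a serum marker of hepatocellular carcinoma, by 3.16 (adjusted p = 0.00279). Between the sexes H19 (-3.78) and Sox4 (-0.78) were lower in males and Spink1 (3.48) higher.

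Gpc3 stood apart in level from the glypican next to it. Gpc4 ends 107173 bases from Gpc3 and was at 16.5, 21.2 and 34.6 FPKM in males and 16.7, 21.5 and 40.9 in females, in the order normal, precancerous, tumor. The FPKM of Gpc3 was 0.00649 and 0.00656 times that of Gpc4 in male and female normal liver, 0.128 and 1.71 times in precancerous tissue, and 2.88 and 2.89 times in tumor. Gpc4 rose by 0.79 between precancerous tissue and tumor (SE 0.12, adjusted p = 0.0124). Of the 9 tested among 13 glypicans, sulphate-modifying enzymes and partners, 2 rose, Gpc4 and the tetraspanin gene Cd81 (0.55, adjusted p = 0.0452), and 1 fell, Notum (-2.03, adjusted p = 0.0306), which encodes a secreted hydrolase that acts on WNT proteins and was first described as one of glypicans. Their median was 0.09, and Ndst1, a heparan sulphate sulphotransferase gene, had -0.46 (adjusted p = 0.0721). Over all tested genes 13.8% were called higher and 12.1% lower. Males against females called Sulf2 (-1.66), Ext2 (-0.72) and Cd81 (-0.41) lower, where 18.2% of all tested genes were called lower.

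Few of the other abundant plasma proteins of hepatocytes were called by edgeR. Of 15 tested, none rose and 2 fell between precancerous tissue and tumor, where 13.8% of all tested genes were called higher and 12.1% lower: these were Vtn (vitronectin, -0.99, adjusted p = 0.0162) and Apoa2 (apolipoprotein A-II, -0.88, adjusted p = 0.0314), with a median of -0.03. DESeq2 called 3 of the 15 higher and 4 lower, and the shares given here are those of edgeR. Ahsg (fetuin-A) had 0.76 (adjusted p = 0.0857) and Trf (transferrin) 0.63 (adjusted p = 0.0881). Against normal liver 1 of the 15 rose, Trf, by 1.46 (adjusted p = 0.00780), and 3 fell, Apoa2, Vtn and Ttr. In that comparison 17.3% of all tested genes were called higher and 16.1% lower. Itih4 was lower in males than in females (-0.50, adjusted p = 0.0455).

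The ligands of Gc and Afm lead to the genes that handle vitamins D and E, of which 4 of 9 were tested. Tumor against precancerous tissue called 13.8% of all tested genes higher and 12.1% lower. Cyp27a1, a sterol hydroxylase that can act on vitamin D, fell by 2.10 between precancerous tissue and tumor (adjusted p = 0.00303) and Ttpa, the hepatic vitamin E transfer protein, by 1.12 (adjusted p = 0.0177). Dhcr7, which uses up the precursor of vitamin D in making cholesterol, rose by 1.60 (adjusted p = 0.00337), and Cyp2r1, the vitamin D 25-hydroxylase, had -0.42 (adjusted p = 0.0810). Between the sexes Cyp2r1 was higher in males (0.58) and Cyp27a1 (-0.43) and Dhcr7 (-0.46) lower, against 19.1% and 18.2% of all tested genes.

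Within 500 kb of Afp the table lists 22 genes, of which 11 were tested and 1, Rassf6, was called higher between tumor and precancerous tissue, by 0.75 (SE 0.13, adjusted p = 0.0159), against 13.8% of all tested genes. No one of the 11 was called lower. Ankrd17 had 0.39 (adjusted p = 0.0648) and Cxcl1, a neutrophil chemokine gene, 0.88 (adjusted p = 0.241). Gm43449, an antisense gene inside Afp that shares no exonic base with it, had at most 10 counts in any library. Around Gc 1 of 4 genes was tested, Slc4a4, with -0.36 (adjusted p = 0.236). Around Gpc3 3 of 12 were tested, of which Gpc4 rose, and Phf6 had 0.44 (adjusted p = 0.0930) and Hprt 0.12 (adjusted p = 0.628).

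**Figure D5:**
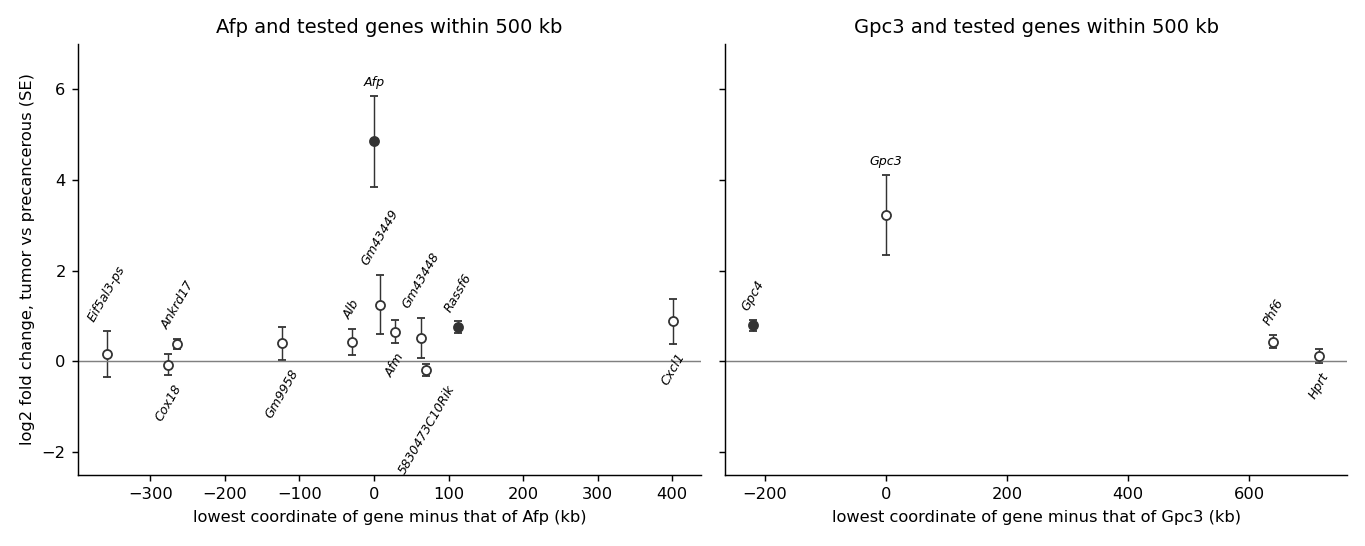
Log2 fold change between tumor and precancerous tissue (vertical axis, bars are standard errors) of Afp and Gpc3 and of the tested genes whose bodies lie within 500 kb of them, by the distance of their lowest coordinates in kb (horizontal axis). Afp at 4.85 and Gpc3 at 3.23 are above their neighbours, of which Rassf6 and Gpc4 passed an adjusted p of 0.05 (filled).

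The genes most like Afp over the libraries were sought by the root mean square difference of log2(FPKM + 1), each gene centred on its own mean over the 6 libraries, among 6269 tested genes with an FPKM of at least 5 somewhere. The 5 nearest to Afp were Tspan8 (0.409), a tetraspanin gene, Cbr3 (0.455), a carbonyl reductase gene, Slc7a11 (0.671), a cystine transporter gene, Scd2 (0.695), a fatty acid desaturase gene, and Igfbp1 (0.731), a binding protein of insulin-like growth factors. Tspan8 was at 0.628, 1.56 and 191 FPKM along the male normal, precancerous and tumor libraries and at 0.426, 15.0 and 123 FPKM along the female ones. Cbr3 stood at 0.428, 0.496 and 75.4 FPKM in males and at 0.581, 10.8 and 86.5 in females. Like Afp, both were higher in the female than in the male precancerous library, a likeness that the choice of the nearest genes favours. In the tumors Tspan8 was higher in the male and Cbr3, like Afp, in the female. The 5 nearest to Gpc3 were Tspan8 (0.721), Akr1c18 (0.746), Cbr3 (0.797), Afp (0.877) and Scd2 (1.03). Gpc3 was 12th in the order of likeness to Afp.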

How the data were processed

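Messenger RNA was measured in 6 liver libraries, 1 per tissue and sex, made with a stranded mRNA kit from RNA isolated with a mirVana kit, per the labels' protocols. In the deposited table each gene has a raw count and an FPKM value per library; the authors' FPKM is fragments per length and library total. The submitters' processing notes name TopHat2 2.0.9 and Cuffdiff, and GRCm38 and mm10 as builds. Whether the counting used strand is not given in the sources.

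Genes that reached 1 FPKM in 2 or more libraries were tested on the deposited counts with the quasi-likelihood test of edgeR 4.0.16 (R 4.3.3). The 6 libraries were scaled by TMM and fitted together with terms for sex and for tissue, which leaves 2 residual degrees of freedom. SE is the log2 fold change divided by the root of the F statistic. The p-values reflect no more than the spread among these libraries. Alternatives were other normalizations, filters, DESeq2 1.42.0, limma-trend (limma 3.58.1) on log2(FPKM + 1) and log2(FPKM + 0.1), no sex term and each library left out; counting the lists by DESeq2 and limma-trend was chosen after seeing the data. The test was also run on simulated data for 11435 genes in the tumor against precancerous comparison, with 200 genes changed in 3 runs. There edgeR recovered 50.0% of the 2-fold changes and 98.7% of the 4-fold changes, and on average 5.7 unchanged genes were called. In the 6 libraries a tissue effect that differs between the sexes goes into the residual. Whether the rates above carry over to these libraries was not tested.

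The 7 genes, the 7 related lists and the 7 marker lists were chosen with earlier results of these data known, so none of them is independent support. Named beside the 7 genes were, from each related list, up to 4 tested genes with the largest change between tumor and precancerous tissue, plus those called between precancerous and normal tissue or between the sexes, the genes within 500 kb of Afp, Gc or Gpc3, and the 5 most like Afp or Gpc3. Some genes of these lists are not reported here. Table coordinates equalled those of GENCODE M21 for the 7 genes. Count intervals are exact Poisson and ratio intervals exact binomial.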

Additional observations from a re-analysis of the deposited data

Results flagged for a closer look

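The male and the female pair of libraries moved in opposite directions for 2 of the 7 genes. Between tumor and precancerous tissue, Gc differed by 0.0528 on the log2(FPKM + 1) scale in males and by -0.107 in females; on TMM-scaled FPKM the male difference was -0.0124, so that both sexes were lower in tumor. Between precancerous and normal tissue, Zbtb20 differed by -0.0942 in males and by 0.101 in females. The difference between the sexes was not tested in either case, each pair holding 1 library per group.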

How the results depend on the processing

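Of 519 values for the 7 genes and the counts of all genes, 429 kept their direction and their side of the threshold or, for counts of genes, stayed near the reported count. Leaving out 1 library in turn moved tumor against precancerous tissue to between 244 and 1543 genes higher and 205 and 1430 lower, precancerous against normal tissue to between 0 and 185 and between 0 and 165, tumor against normal liver to between 1057 and 1385 and between 882 and 1387, and males against females to between 484 and 2042 and between 214 and 1934. With a library left out, tumor against precancerous values lay between 3.66 and 6.82 for Afp, 1.62 and 5.15 for Gpc3, 0.25 and 1.03 for Afm and -0.19 and 0.0806 for Gc, which turned positive without the female tumor. Between precancerous and normal tissue they lay between 4.79 and 8.31 for Gpc3 and -0.26 and 0.31 for Zbtb20. Between tumor and normal liver they lay between 0.61 and 1.20 for Alb, 0.63 and 1.40 for Afm and -0.19 and 0.0405 for Zhx2. Between the sexes they lay between -1.60 and 0.48 for Afp, -0.17 and 0.34 for Afm, -0.23 and 0.000458 for Gc, -3.70 and -0.30 for Gpc3 and 0.45 and 0.91 for Zbtb20.

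Without sex in the model, 52 genes were higher and 61 lower between tumor and precancerous tissue, 0 and 0 between precancerous and normal tissue, and 400 and 290 between tumor and normal liver; Afp (4.66) and Afm (1.03, tumor against normal) lost their calls and Zbtb20 turned to -0.0178 between precancerous and normal tissue. With no FPKM filter, 97 genes were higher and 86 lower between precancerous and normal tissue, where Gpc3 (7.36) was called and Zbtb20 was at -0.01004; Gpc3 (3.17) and Zhx2 (-0.59) between tumor and precancerous tissue and Alb (0.84) between tumor and normal liver were called as well. An FPKM of at least 1 in all 6 libraries, which leaves out Afp, Gpc3 and Zbtb20, gave 25 higher and 48 lower between precancerous and normal tissue and called Zhx2 (-0.51) between tumor and precancerous tissue. DESeq2 gave 210 and 158 between precancerous and normal tissue and called Gpc3 there (7.02), Alb between tumor and normal liver (0.89) and Zbtb20 between the sexes (0.65). In the same comparison of precancerous with normal tissue, limma-trend called 1 higher and 2 lower with a pseudocount of 1 and 5 and 5 with 0.1. With library totals alone, Zbtb20 was called between the sexes (0.73). On TMM-scaled FPKM, 3 differences of single libraries near 0 changed sign: Gc to -0.0124 in male tumor against male precancerous tissue and to -0.0415 in male against female precancerous tissue, and Zbtb20 to -0.00194 in male against female tumor. The cause was not tested for any of these changes. No paired analysis was possible because the labels give no replicate numbers that pair libraries; the sex term of the model already sets the tissues against each other within a sex.

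The depth limits Afp and Gpc3 in normal liver most, where they had at most 14 and 6 counts, so that their folds against normal liver are wide. With 1 library per group, a tissue effect that differs between the sexes has no test, and sex goes with age and with a difference in counting.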

Other observations

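Cebpa, the gene of a liver transcription factor in the list of those known from the control regions of Afp and Alb, stood at 5.19 FPKM in female normal liver and at between 31.8 and 54.2 FPKM in the other 5 libraries; it was named after its values were seen. Prox1, another of that list, was at 7.70 and 7.75 FPKM in male and female normal liver, 16.0 and 14.3 in precancerous tissue and 11.6 and 10.4 in tumor. Dhcr7 was lowest in precancerous tissue, with 17.5 and 20.3 FPKM in normal liver, 6.46 and 9.04 in precancerous tissue and 20.7 and 27.1 in tumor. Igf2, the growth factor gene that neighbours H19, had 6.04 FPKM in the female tumor and at most 0.683 in the other libraries. It was not tested, because it reached 1 FPKM in the female tumor only.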
